A study of Homo sapiens with 33 samples.

Results

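The genes described are 10 members of the bone morphogenetic protein (BMP) axis: the ligand genes BMP2, BMP4 and BMP7, the response genes ID1, ID2, ID3, ID4, MSX1 and MSX2, and the inhibitor gene SMAD6. They were taken by name, and all 10 were found among the 35805 genes of the RNA table and among the 35683 gene names of the chromatin table, where they cover 37 of 153958 promoter windows. The cells were human embryonic stem cells of the H9 line, grown on irradiated mouse feeder cells and sorted for the surface antigen SSEA4, in 4 EZH2 genotypes with 3 RNA libraries each. WT cells carried both EZH2 alleles (EZH2 +/+). Het cells (EZH2 -/+) were a clonal line with 1 allele disrupted by CRISPR/Cas9. Null cells (EZH2 -/-) came from a Het line that had received a doxycycline-inducible EZH2 transgene by piggyBac transposition and was targeted again, and they were kept without doxycycline. Null+EZH2 cells (EZH2 -/- +EZH2) were Null cells in which doxycycline switched on that transgene. Some Null lines had the transgene removed, and which lines were sequenced is not given in the sources used here. The Null and Null+EZH2 cells thus differ from WT by cloning and by the transgene as well as by EZH2.

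BMP ligands bind type I and type II serine/threonine kinase receptors, which phosphorylate the receptor SMADs so that these enter the nucleus with SMAD4 and switch on target genes. The ID genes, the MSX genes and SMAD6 are direct targets in many tissues, and SMAD6 feeds back to inhibit the pathway. In human embryonic stem cells added BMP4 is widely used to drive differentiation. EZH2 is the catalytic subunit of Polycomb repressive complex PRC2, which trimethylates histone H3 at lysine 27 (H3K27me3) and is best known at silent, CpG-rich promoters of developmental genes.

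RNA values are reads on a gene per 1000000 reads of the library (RPM). The libraries held 25019064 to 56845644 reads in all and 16587860 to 36589089 reads on genes. RPM was scaled to all reads of a library, so a count of 3 reads corresponds to 0.0528 to 0.120 RPM. The lowest member value was 9 reads, for MSX2, and the limits of 3 reads cover counting error alone. EZH2 itself was at 68.6, 63.3 and 59.5 RPM in WT, 55.4, 52.3 and 45.7 in Het, 11.5, 8.65 and 9.68 in Null and 271, 385 and 256 in Null+EZH2, so the rescue cells carried more EZH2 RNA than WT (log2 fold change 2.23 ± 0.17 SE, limma adjusted p = 3.83e-05). The summed level of 8 pluripotency markers was 3141 to 4093 RPM in WT, 3858 to 4464 in Het, 3890 to 4211 in Null and 3803 to 4235 in Null+EZH2, so the labelled cell type was present in every library. In Null against WT 4 of the 8 were called higher, namely POU5F1, NANOG (88.1 against 22.2 RPM), TDGF1 (291 against 67.0) and ZFP42, and 2 lower, SOX2 (109 against 224) and PODXL (683 against 1212). Markers of other cell types moved with the genotypes too. Of 6 endoderm markers 4 were called higher in Null than in WT, and their sum was 20.5 to 33.4 RPM in WT, 12.9 to 97.2 in Het, 81.7 to 161 in Null and 15.9 to 32.5 in Null+EZH2. For mesoderm markers the sum was 58.3 to 95.4, 59.6 to 132, 180 to 256 and 83.5 to 224 in the same order, with 2 of 7 called higher in Null than in WT. Of 8 trophectoderm and amnion markers 4 were tested and 3 were called higher in Null than in WT. The 8 summed to 17.5 to 21.6 in WT, 15.6 to 38.0 in Het, 35.2 to 38.9 in Null and 26.6 to 31.8 in Null+EZH2. The listed marker CGA had 0 reads in all 12 libraries. Mesenchyme markers summed to 286 to 361, 247 to 305, 293 to 538 and 232 to 309, with 4 of 7 called higher and 1 called lower in Null than in WT. Neuroectoderm markers summed to 36.4 to 104, 94.6 to 129, 50.1 to 66.1 and 57.4 to 73.5, with 2 of 3 tested called lower in Null than in WT. Their part in the member values was not tested. In bulk RNA, more cells of a type and more RNA per cell cannot be told apart.

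The promoters of MSX1, MSX2 and ID1 are printed because MSX1 and MSX2 carried the most H3K27me3 of the 10 members, while ID1, which was higher in Null cells, carried less of it. Each line holds the 250 bases before the annotated start, on the plus strand of GRCh38, with every CG dinucleotide in capitals. MSX1 lies at chr4:4859415-4859664, MSX2 at chr5:174724332-174724581 and ID1 at chr20:31605039-31605288, and the sequences are from RefSeq (GRCh38.p14).
MSX1: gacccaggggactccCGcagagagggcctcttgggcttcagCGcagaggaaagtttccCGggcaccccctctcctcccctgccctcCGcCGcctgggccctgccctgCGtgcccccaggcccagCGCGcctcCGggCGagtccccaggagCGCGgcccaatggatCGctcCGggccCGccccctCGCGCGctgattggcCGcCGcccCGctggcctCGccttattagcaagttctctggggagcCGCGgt
MSX2: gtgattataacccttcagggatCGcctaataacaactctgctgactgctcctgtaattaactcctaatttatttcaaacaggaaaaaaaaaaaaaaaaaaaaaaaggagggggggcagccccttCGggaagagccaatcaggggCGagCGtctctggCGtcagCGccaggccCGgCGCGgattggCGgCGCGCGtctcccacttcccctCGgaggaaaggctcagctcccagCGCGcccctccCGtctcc
ID1: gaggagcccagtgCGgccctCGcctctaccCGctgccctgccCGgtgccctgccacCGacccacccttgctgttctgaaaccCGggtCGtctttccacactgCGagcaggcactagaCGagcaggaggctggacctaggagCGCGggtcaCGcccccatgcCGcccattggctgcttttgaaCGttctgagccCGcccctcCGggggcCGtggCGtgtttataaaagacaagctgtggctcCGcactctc
The MSX1 stretch held 24 CG, the MSX2 stretch 17 and the ID1 stretch 19, against a median of 11 over 35116 promoters of the same length. RefSeq entries matched 8 of the 10 members, with 10 promoters between them, and all 10 were above that median, from 17 to 34 CG. The letters GGCGCC, searched as 1 motif that reads the same on both strands, stood in 1 of the 10, a BMP4 promoter, and in 16.4% of all promoters. CAGAC or its reverse GTCTG stood in 4 of 10 and in 38.0% of all. The CG content is thus above the median in every member with an entry, whether or not its RNA differed between genotypes. It is not high in all of them. The count exceeded that of 61.0% of promoters at MSX2, 65.4% at ID1, 76.3% at MSX1 and 93.2% at ID4.

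Among the ligands, BMP4 RNA rose in Null cells and stayed above WT after EZH2 was put back, while BMP2 was higher in Null than in Null+EZH2 and BMP7 passed no test. BMP4 (chr14:53949736-53958761, minus strand) encodes a secreted ligand that signals through the BMP receptors and was at 1.98, 3.52 and 2.03 RPM in WT, 2.28, 2.90 and 2.72 in Het, 12.6, 27.2 and 29.9 in Null and 10.5, 7.61 and 6.52 in Null+EZH2. Every Null library was above every library of the other 3 genotypes, Null+EZH2 lay between Null and WT with no overlap on either side, and Het and WT overlapped. Null exceeded WT by 3.11 ± 0.33 (SE) on the log2(RPM + 0.1) scale (limma adjusted p = 5.96e-05), and all 6 fits that left out 1 WT or Null library kept that call. The difference between Null and Null+EZH2 was 1.42 ± 0.33 (limma adjusted p = 0.0369). That second call was lost without Null replicate 2 or 3 or without any 1 of the 3 Null+EZH2 replicates (adjusted p 0.0054 to 0.197 over the 6 fits). Null+EZH2 exceeded WT by 1.69 ± 0.33 (limma adjusted p = 0.00720), in 6 of 6 such fits. Between Het and WT the difference was 0.11, with a 95% interval from -0.60 to 0.82.

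BMP2 (chr20:6767664-6780280, plus strand), a close relative of BMP4 in sequence and receptor use, was at 11.7, 8.37 and 9.29 RPM in WT, 12.9, 21.3 and 5.60 in Het, 16.9, 27.5 and 16.4 in Null and 4.27, 5.31 and 7.51 in Null+EZH2. All 3 Null libraries were above all WT and all Null+EZH2 libraries, all Null+EZH2 libraries were below WT, and Het spread across the range of the others. Null against Null+EZH2 gave 1.81 ± 0.40 (limma adjusted p = 0.0277), a call lost without Null replicate 2 or 3 or Null+EZH2 replicate 1 or 2, with adjusted p from 0.0406 to 0.161 over the 6 fits. Null against WT gave 1.01 ± 0.40, with an adjusted p of 0.0680 without and 0.0429 with the replicate number as a block in limma. BMP7 (chr20:57168748-57266629, minus strand), a ligand of another branch of the family that can pair with BMP2 or BMP4, was at 13.1, 10.8 and 8.17 RPM in WT, 7.96, 8.02 and 15.9 in Het, 12.7, 19.4 and 17.9 in Null and 7.46, 9.11 and 11.6 in Null+EZH2. Null and Null+EZH2 did not overlap, but WT replicate 1 lay above Null replicate 1, and the BMP7 differences of 0.82 ± 0.29 and 0.64 ± 0.29 did not pass (limma adjusted p = 0.159 and 0.109).

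The 4 ID genes, which encode helix-loop-helix proteins without a DNA-binding region that hold other such factors inactive, did not move together. ID1 and ID4 were higher in Null than in WT, ID2 was lower, and ID3 passed no test. ID1 (chr20:31605283-31606515, plus strand) was at 16.3, 29.4 and 22.7 RPM in WT, 25.1, 30.7 and 27.5 in Het, 44.6, 53.0 and 73.9 in Null and 40.5, 43.0 and 52.4 in Null+EZH2. Every Null and every Null+EZH2 library was above every WT and every Het library, and Null and Null+EZH2 overlapped. ID1 rose by 1.33 ± 0.22 in Null (limma adjusted p = 9.98e-04, 6 of 6 fits) and by 1.02 ± 0.22 in Null+EZH2 (limma adjusted p = 0.0135, lost without WT replicate 1 at the highest adjusted p of 0.0651). Between Null and Null+EZH2 the ID1 difference was 0.31, with a 95% interval from -0.17 to 0.80 that spans 0.

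ID2 (chr2:8678845-8684453, plus strand) went the other way, at 61.9, 66.3 and 68.3 RPM in WT, 19.9, 14.3 and 52.7 in Het, 17.0, 18.3 and 20.9 in Null and 19.1, 17.5 and 41.5 in Null+EZH2. All 9 libraries of the mutant genotypes were below all WT libraries, and replicate 3 of Het and of Null+EZH2 stood well above the other 2 of its group. Null was lower than WT by 1.80 on the log2 scale (log2 fold change -1.80 ± 0.40, limma adjusted p = 0.00544, 6 of 6 fits). Null+EZH2 was lower by the same measure (-1.44 ± 0.40, limma adjusted p = 0.0397), a call that was kept in 1 of 6 fits, the one without Null+EZH2 replicate 3, with adjusted p from 0.0140 to 0.160. Het against WT gave -1.40 ± 0.40, with limma adjusted p = 0.158 without and 0.0237 with the replicate block, and without Het replicate 3 it passed at 0.00698. With replicate 3 of all genotypes left out, an alternative chosen after seeing the data, the log2 fold changes from WT were -1.92 in Het and -1.80 in Null+EZH2 (limma adjusted p = 0.00160 and 5.23e-04). The overlapping antisense gene ID2-AS1 was at 0.0297 to 0.888 RPM, and because the counting did not use strand its reads cannot be told apart from those of ID2, which was never below 14.3 RPM.

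ID3 (chr1:23557918-23559794, minus strand) was at 59.2, 66.7 and 43.7 RPM in WT, 45.4, 45.4 and 29.0 in Het, 39.9, 52.9 and 55.0 in Null and 44.7, 31.2 and 45.6 in Null+EZH2, and all groups overlapped with WT. Its Null against WT difference was -0.19, with a 95% interval from -0.69 to 0.30. ID4 (chr6:19837386-19840684, plus strand) was at 1.31, 3.25 and 1.86 RPM in WT, 1.30, 1.97 and 1.19 in Het, 3.87, 6.06 and 3.62 in Null and 1.90, 2.44 and 2.72 in Null+EZH2. All Null libraries were above all others. ID4 rose by 1.10 ± 0.33 against WT (limma adjusted p = 0.0249), lost without WT replicate 1 or 3 or Null replicate 2, and its 0.89 ± 0.33 against Null+EZH2 had an adjusted p of 0.188 without and 0.0371 with the replicate block.

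MSX1 and MSX2 encode homeobox repressors that respond to BMP in limb, tooth and neural crest, and here both had lower means in Het and Null+EZH2 than in WT and Null. For MSX1 the differences of Het and Null+EZH2 from WT and of Null from Null+EZH2 passed the test, and for MSX2 they did so only with the replicate block, while Het was not tested against Null. MSX1 (chr4:4859666-4863936, plus strand) was at 4.53, 4.21 and 1.44 RPM in WT, 0.441, 0.367 and 0.498 in Het, 1.51, 5.33 and 3.95 in Null and 0.540, 0.295 and 1.12 in Null+EZH2. Every WT and every Null library was above every Het and every Null+EZH2 library. MSX1 was lower than WT in Het (-2.56 ± 0.53, limma adjusted p = 0.0391) and in Null+EZH2 (-2.21 ± 0.53, limma adjusted p = 0.0210), and higher in Null than in Null+EZH2 (2.28 ± 0.53, limma adjusted p = 0.0385). Each of these 3 calls was kept in 2 of 6 fits without 1 library. The first was lost without replicate 1 or 2 of WT or Het, the second without replicate 1 or 2 of WT or Null+EZH2, and the last without Null replicate 2 or 3 or Null+EZH2 replicate 1 or 2. Null and WT differed by 0.07, with a 95% interval from -1.09 to 1.23, so a sizeable change in either direction could not be detected.

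MSX2 (chr5:174724533-174730893, plus strand) had the same order of groups, at 1.89, 4.69 and 1.09 RPM in WT, 0.343, 0.367 and 0.374 in Het, 1.58, 6.21 and 4.30 in Null and 0.231, 0.456 and 1.44 in Null+EZH2. Null replicates 2 and 3 were the highest with WT replicate 2, and Null+EZH2 replicate 3 reached into the WT range. No MSX2 difference passed without the block, but 3 did with it. Null and WT differed by 0.68, with a 95% interval from -0.67 to 2.03. Null against Null+EZH2 gave 2.46 ± 0.62 (limma adjusted p = 0.0525 without, 0.0195 with the block), Het against WT -2.29 ± 0.62 (0.131 and 0.0486) and Null+EZH2 against WT -1.77 ± 0.62 (0.0914 and 0.0374). Without Null+EZH2 replicate 3 the first and the last of these passed without the block (limma adjusted p from 0.0231 to 0.255 and from 0.0283 to 0.322 over 6 fits each), and the first did so without Null replicate 1 too.

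SMAD6 (chr15:66702228-66782848, plus strand), the inhibitory SMAD that competes with receptor SMADs, was at 6.82, 5.76 and 4.85 RPM in WT, 4.77, 5.94 and 4.54 in Het, 6.26, 11.0 and 8.64 in Null and 4.42, 5.60 and 4.56 in Null+EZH2. The Null libraries were all above Null+EZH2 but reached into the WT range at replicate 1. Against Null+EZH2 the difference was 0.79 ± 0.23 (limma adjusted p = 0.0891 without, 0.0280 with the block) and against WT 0.54 ± 0.23 (0.0907 and 0.0375). SMAD6 passed in both comparisons without Null replicate 1 (limma adjusted p = 0.0354 and 0.0329).

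**Figure D1:**
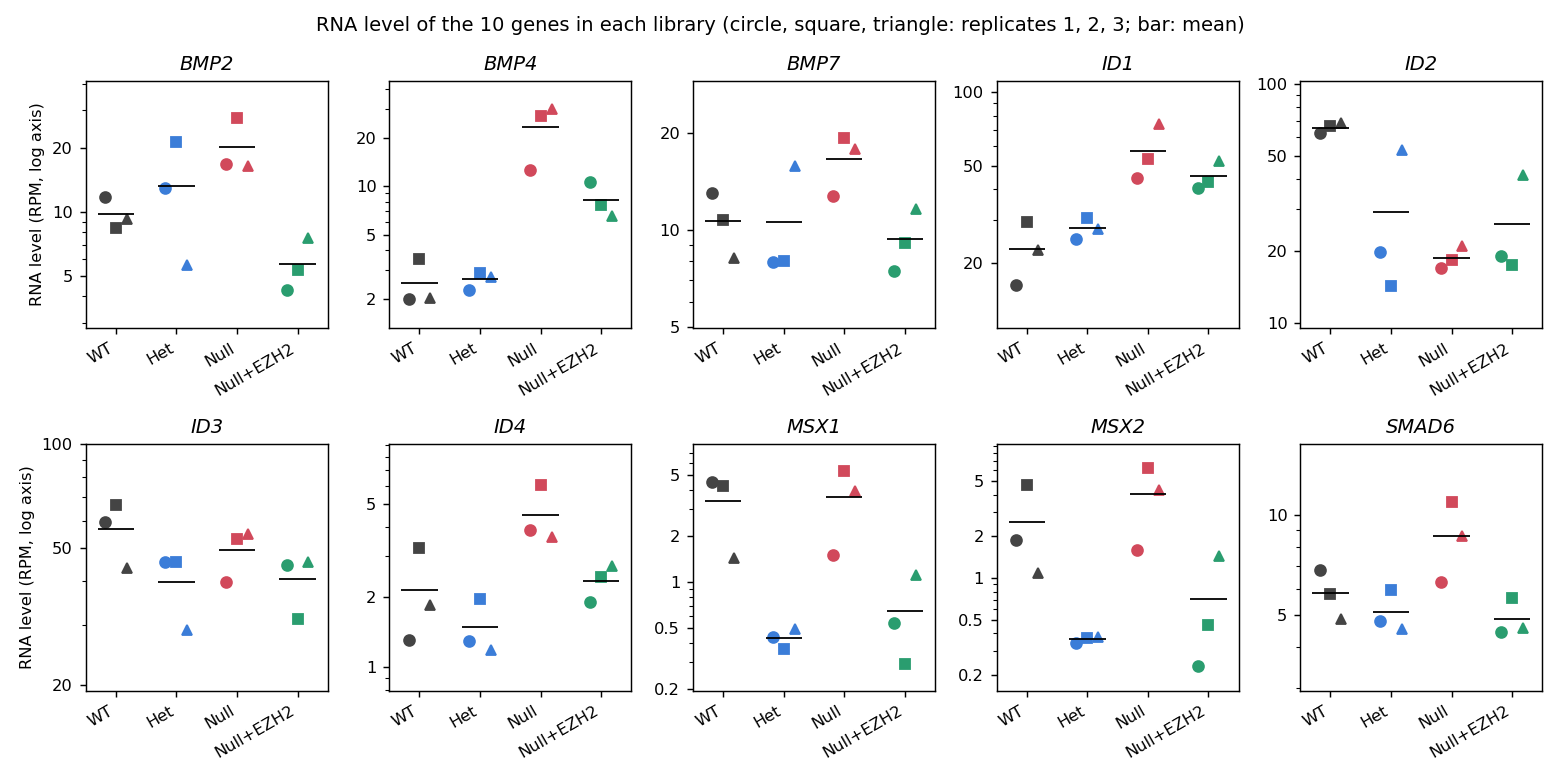
RNA level of the 10 members in RPM on a log axis, with 1 point per library and a bar at the mean of the 3 libraries of WT, Het, Null and Null+EZH2. BMP4 stands highest in Null (mean 23.2 RPM against 2.51 in WT), ID2 stands highest in WT (65.5 against 18.7 in Null), and MSX1 and MSX2 are low in Het (0.435 and 0.361) and in Null+EZH2 (0.651 and 0.709).

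By count, 3 members were higher (BMP4, ID1 and ID4) and 1 lower (ID2) in Null than in WT, where 12.6% of all 20608 genes tested were higher and 18.8% lower. In either direction that is 4 of 10 members beside 31.4% of genes, a share close to the background. With the block 5 were higher and 1 lower, against 17.3% and 28.0%. Between Null and Null+EZH2, 3 were higher (BMP2, BMP4 and MSX1) and 0 lower in Null, where 2.63% of genes were higher and 0.524% lower. The block made that 6 and 0, against 6.19% and 3.21%, and 7 of the 10 members had all Null libraries above all Null+EZH2 libraries, against 13.5% of genes. The voom fit of the recovered reads called 0 of the 10 there, where it called 300 of the 20608 genes. Between Het and WT 1 member (MSX1) was lower, against 0.966% of genes, and 3 with the block (MSX1, ID2 and MSX2), against 2.16%. Between Null+EZH2 and WT 2 were higher (BMP4 and ID1), against 3.40%, and 2 lower (ID2 and MSX1), against 6.90%. The members' median log2 fold change was 0.66 in Null against WT, 0.86 in Null against Null+EZH2, -0.31 in Het against WT and -0.36 in Null+EZH2 against WT, beside -0.13, 0.02, -0.09 and -0.15 over all genes tested. The comparisons share their WT or Null libraries, so their counts are not independent of each other.

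**Figure D2:**
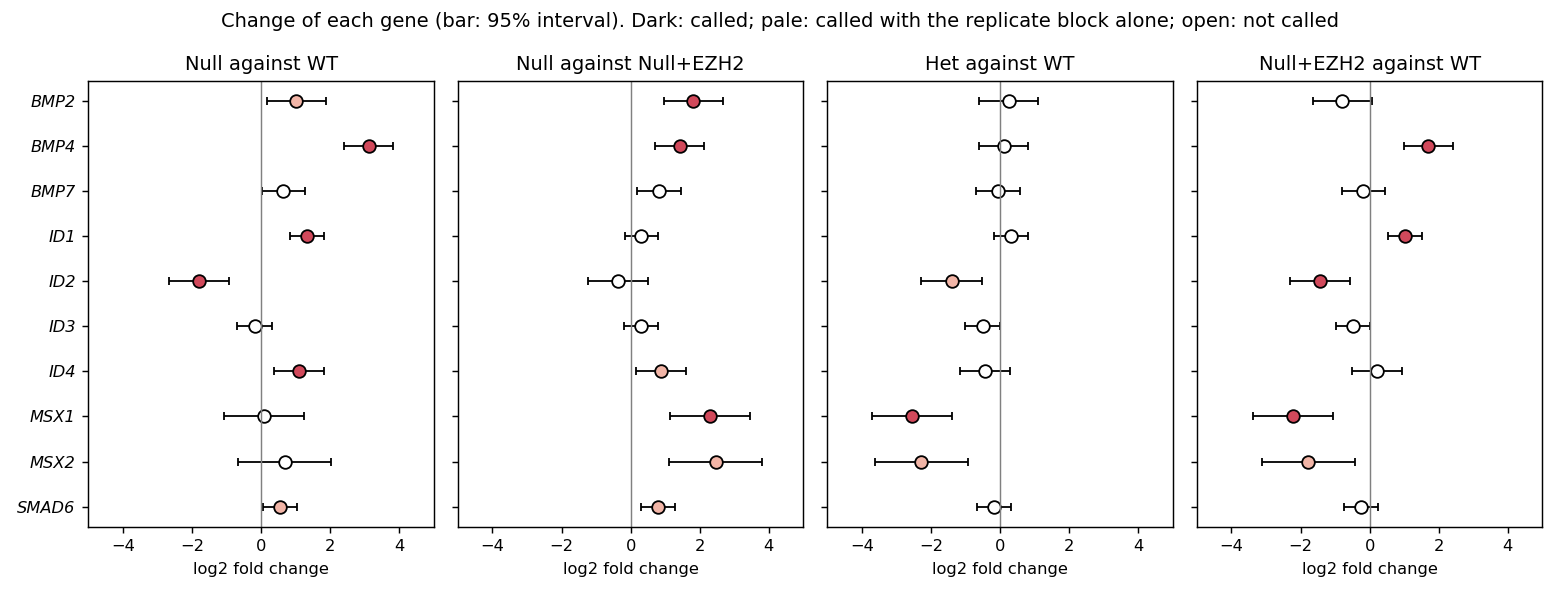
Log2 fold change of each member in the 4 genotype comparisons, with bars for the 95% interval, dark points where the limma adjusted p was under 0.05, pale points where it was so only with the replicate block and open points elsewhere. BMP4 is to the right of 0 in Null against WT (3.11), Null against Null+EZH2 (1.42) and Null+EZH2 against WT (1.69), and ID2 is to the left in Null against WT (-1.80).

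Per kilobase of exon, the order of the WT levels was ID3 (37.8 RPM per kb), ID2 (29.6), ID1 (18.5), BMP2 (2.76), BMP7 (1.97), MSX1 (1.60), MSX2 (1.15), BMP4 (0.811), SMAD6 (0.679) and ID4 (0.552). Among neighbours in that order, the WT libraries were apart only between ID2 and ID1 and between ID1 and BMP2. In Null the order was ID1 (46.4 RPM per kb), ID3 (32.9), ID2 (8.47), BMP4 (7.50), BMP2 (5.71), BMP7 (3.07), MSX2 (1.81), MSX1 (1.70), ID4 (1.17) and SMAD6 (1.01). There the libraries were apart only between ID3 and ID2 and between BMP2 and BMP7. By mean, BMP4 thus ranked below BMP2 and BMP7 in WT and above both in Null.

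At the promoters, H3K27me3 was lower in Null than in WT at all 10 members. In Null+EZH2 it was within 5% of the WT level at BMP2, MSX1, MSX2 and SMAD6, and at 34.1% of it at BMP4. Values are RPM in windows of 2.5 kb to either side of each annotated start, given as the median over a gene's windows. Each histone column is, per the labels, the mean of 2 libraries, while the study's own text describes a larger number, and the EZH2 column holds 1, so there is no replicate error and no test. The WT order was MSX1 (38.0 RPM), MSX2 (34.8), ID4 (10.6), BMP2 (9.79), SMAD6 (9.26), BMP4 (8.32), ID3 (5.43), ID1 (4.69), BMP7 (3.03) and ID2 (2.16), beside a median of 1.68 over all gene names. MSX1 and MSX2 thus stood above 99.3% and 99.1% of gene names, and ID2 above 63.4%. EZH2 binding in WT was also highest at MSX1 (6.41 RPM) and MSX2 (4.74), then SMAD6 (2.09), ID4 (1.85), BMP2 (1.24), BMP4 (0.773), ID2 (0.724), ID1 (0.708), ID3 (0.579) and BMP7 (0.247), beside a median of 0.258. The BMP7 medians of H3K27me3 and EZH2 in WT fall on internal windows, whereas its H3K27me3 median in Null falls on a promoter window. Its median-based change from WT to Null thus compares different windows. Its 4 promoter windows held 28.5 to 31.0 RPM of H3K27me3 and 2.88 to 2.90 RPM of EZH2 in WT, and its 5 internal windows held 2.37 to 3.03 RPM of H3K27me3. At those promoter windows H3K27me3 was at 37.7 to 41.0 RPM in Het, 0.989 to 1.06 in Null and 24.1 to 26.1 in Null+EZH2.

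In Null the H3K27me3 level was 4.00 RPM at MSX1, 1.58 at MSX2, 1.48 at ID1, 1.05 at BMP2, 0.989 at BMP7, 0.868 at ID3, 0.818 at ID2, 0.782 at SMAD6 and 0.588 at both BMP4 and ID4. By these medians, Null was above the matched input at 4 members (BMP4, ID1, MSX1 and MSX2) and below it at 6. In each of the other 3 genotypes all 10 were above input. The share of all gene names above input was not computed, so these counts have no background beside them. At the BMP7 promoter windows Null held 0.989 to 1.06 RPM of H3K27me3 and 0.850 to 0.919 RPM of input. MSX1 kept the most, at 2.83 times its input. The others above input stood close to it, at 1.31 times in BMP4, 1.05 in MSX2 and 1.04 in ID1. At BMP4 that ratio rests on 8.12 reads of H3K27me3 and 7.98 of input, and no counting error was computed for these ratios. By these medians the change from WT ran from -1.30 at ID2 to -4.38 at MSX2 on the log2(RPM + 0.1) scale, while at the BMP7 window with the most H3K27me3 it was -4.74, larger than at MSX2, and all 10 members were lower by at least 1, as were 41.5% of all gene names. The median change over all gene names was -0.75, and after centring on it 7 of the 10 members were still lower by 1. RPM values are relative to the other reads of their own library, so a loss over the whole genome is understated.

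Adding EZH2 back gave 9.73 RPM at BMP2 (99.3% of WT), 38.6 at MSX1 (102%), 36.1 at MSX2 (104%) and 8.81 at SMAD6 (95.1%). It gave 2.83 at BMP4 (34.1% of WT), 2.34 at ID1 (49.8%), 5.71 at ID4 (53.9%), 3.25 at ID3 (59.8%) and 2.87 at ID2 (133%). The ID2 direction depends on the window, since at its window with the most H3K27me3 Null+EZH2 was at 1.75 RPM against 3.09 in WT (a change of -0.78). The BMP7 median stood at 72.5% of WT, with a change of -0.25 at its strongest promoter window. BMP4, whose RNA also stayed above WT, was the 1 member lower than WT by at least 1 (-1.52, with a counting error of 0.38 at 95%), against 4.00% of gene names. Its 8 windows ranged from 1.31 to 3.04 RPM in Null+EZH2 and from 3.07 to 9.88 in WT. Null was lower than Null+EZH2 by at least 1 at 9 of 10 members, all but ID1 (-0.62), against 31.8% of gene names, although ID2 differed by only -0.37 at its window with the most H3K27me3. In Het, ID2 had more H3K27me3 than WT (5.47 against 2.16 RPM, a change of 1.30 with a counting error of 0.51), as did 0.717% of gene names by at least 1, and ID3 had less (2.62 against 5.43, a change of -1.02), as did 3.24%. The other 8 members changed by -0.75 to 0.55 between Het and WT.

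**Figure D3:**
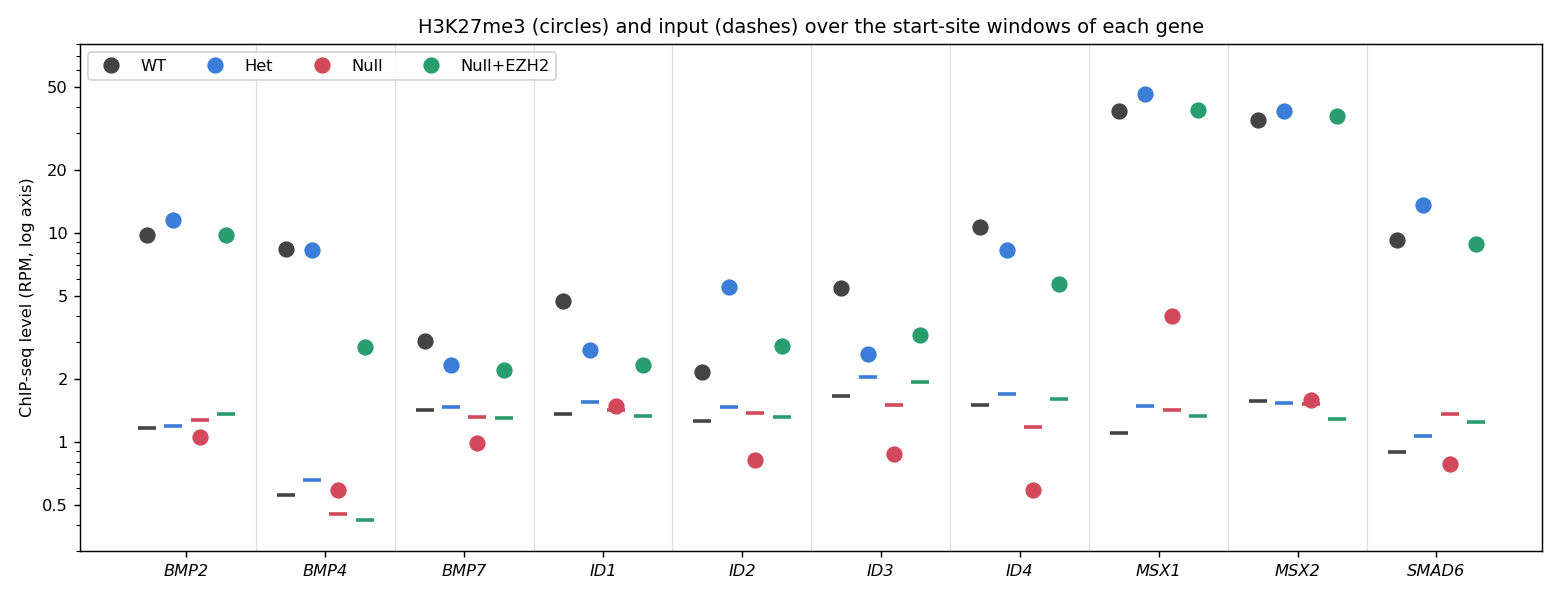
H3K27me3 in RPM on a log axis at the promoter windows of the 10 members in WT, Het, Null and Null+EZH2, with circles for the median over a gene's windows and dashes for the input. Null is lowest at every member, and at BMP4 the Null+EZH2 point (2.83 RPM) lies between Null (0.588) and WT (8.32).

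The active marks moved less at these promoters. H3K27ac, a mark of active promoters and enhancers, was above WT in Null at 10 of 10 members, while only 31.2% of all gene names were below WT. At BMP2, BMP7, ID1, ID2, ID3, ID4 and MSX1 the change was within its counting error. By the medians, the change was at least 1 at BMP4 (0.459 to 1.18 RPM, a change of 1.20) and MSX2 (0.578 to 1.89, a change of 1.55), against 6.91% of gene names. The median change over all gene names was 0.26. The counting errors at BMP4 and MSX2 were 1.05 and 0.90, so the BMP4 change barely exceeds its own. Het was above WT at the same members, by 1.13 at BMP4 and 1.17 at MSX2 (0.743% of gene names), where the RNA differences were 0.11 and -2.29. Null+EZH2 was above WT by 1.26 at BMP4 (2.30% of gene names). H3K4me3, a mark of promoters that are active or poised, was lower in Null by at least 1 at the BMP7 median, which falls on weak internal windows (2.95 to 1.31 RPM, a change of -1.12), and at MSX1 (17.7 to 8.02 RPM, a change of -1.13), against 12.8% of gene names. At the strongest BMP7 promoter window the change was -0.26 (20.2 to 16.8 RPM), and the WT column was the least deep, with 1 read worth 0.292 RPM against 0.0575 to 0.0968 in the other genotypes. No member changed by 1 in H3K4me1, a mark of enhancers and promoter flanks, in any comparison.

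Set side by side over the 10 members, the H3K27me3 and RNA changes from WT to Null+EZH2 had a Pearson correlation of -0.885 and a Spearman correlation of -0.915, beside -0.121 over 20561 genes. For the same pair of measures the Pearson values were -0.726 in Null against Null+EZH2, -0.454 in Null against WT and -0.388 in Het against WT, beside -0.250, -0.0648 and -0.177 over all genes. These were the H3K27me3 values among 16 pairs of comparison and mark that were computed. Without BMP4 the first of them was -0.810 over 9 genes, and with each gene's window of most H3K27me3, an alternative chosen after seeing the data, it was -0.782 over all 10. They describe a few genes measured in shared libraries, with no test. In Null against WT the members with the most H3K27me3 to lose were not those with the largest RNA change. MSX1 and MSX2 had H3K27me3 changes of -3.22 and -4.38 and RNA changes of 0.07 and 0.68, while ID1 had -1.60 and 1.33. Other members had both a large loss and higher RNA, with -3.61 and 3.11 at BMP4 and -3.96 and 1.10 at ID4.

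**Figure D4:**
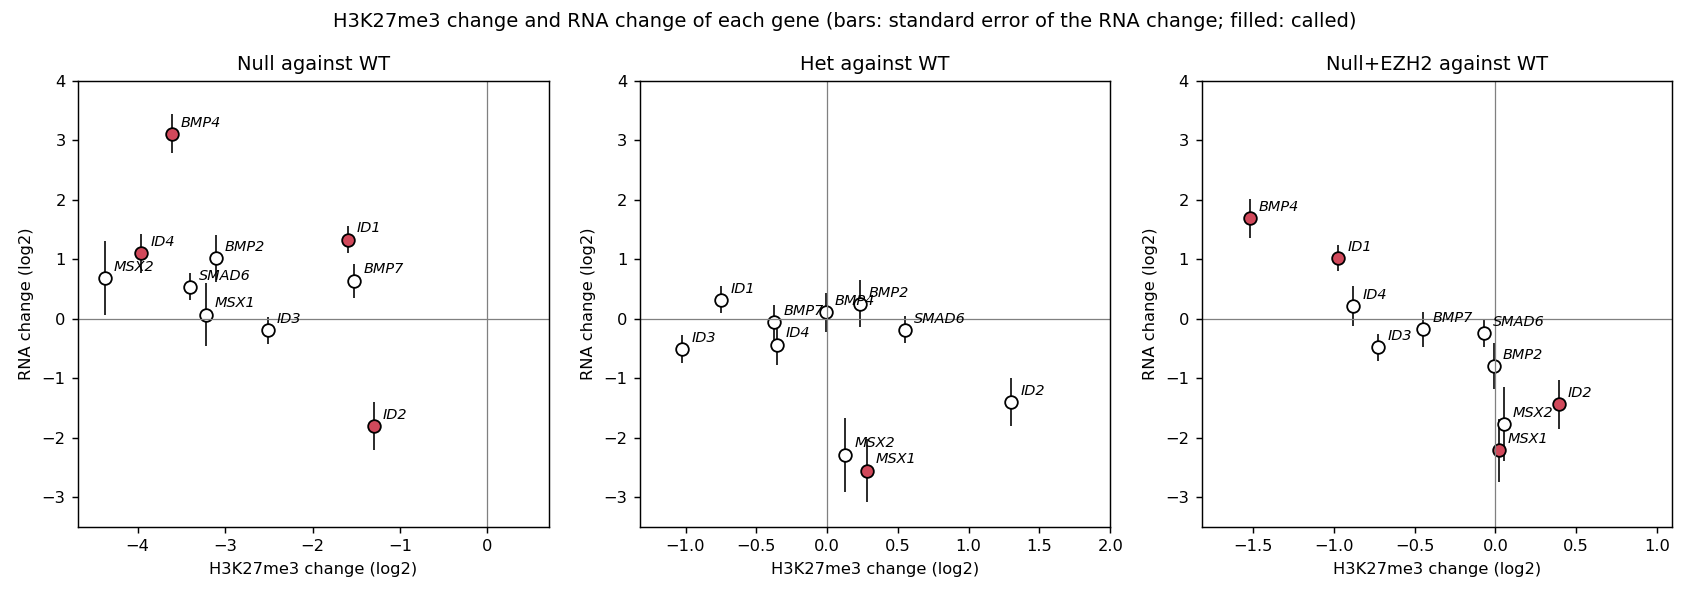
Change in H3K27me3 (horizontal, log2) against change in RNA (vertical, log2) for the 10 members in Null, Het and Null+EZH2 against WT, with 1 labelled point per gene, bars for the standard error of the RNA change and filled points for called genes. In Null+EZH2 against WT, BMP4 is at -1.52 and 1.69, ID1 at -0.97 and 1.02, and MSX1 at 0.02 and -2.21.

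Among 57 other genes of the pathway, 49 could be tested. In Null against WT the receptor genes that passed the test were all lower and the response genes that passed were all higher. There 12 of the 49 were higher and 9 lower, against 12.6% and 18.8% of all genes, with a median change of 0.07. Of 10 receptors and co-receptors tested 0 were higher and 4 lower. They were RGMB (15.9 ± 3.10 RPM in Null, 62.7 ± 5.67 in WT, SD, n = 3), a co-receptor for BMP ligands, RGMA (32.2 against 65.4) and the type II receptors ACVR2B (39.2 against 73.6) and ACVR2A (6.52 against 12.1). In Het and Null+EZH2 the means were 25.0 and 20.8 RPM for RGMB and 58.1 and 38.4 for RGMA. They were 70.8 and 55.0 for ACVR2B and 9.17 and 6.59 for ACVR2A. Between Null and Null+EZH2 0 of the 10 receptor genes were called without the block. With it, BMPR1B was called higher (1.29 against 0.452 RPM) and ACVR2B lower in Null than in Null+EZH2. With the block ACVR1 was called higher in Null than in WT. Of 7 other ligands GDF3 was higher (65.3 ± 7.07 against 7.77 ± 2.75 RPM, log2 fold change 3.10, limma adjusted p = 5.96e-05) and BMP8B lower (0.864 against 1.72). Of 7 SMAD and SMURF genes, the inhibitory SMAD7 was higher (32.0 ± 1.19 against 5.45 ± 0.244, log2 fold change 2.53, limma adjusted p = 8.34e-04) and SMAD4 lower (40.7 against 55.2). GDF3 had means of 10.1 RPM in Het and 31.6 in Null+EZH2, and SMAD7 of 10.0 and 15.8.

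Antagonists split, with 5 of 14 tested higher and 3 lower. FST, which encodes follistatin, a secreted protein that binds activins and some BMPs, was at 66.5 ± 1.61 RPM in Null and 314 ± 24.6 in WT (-2.23 ± 0.27, limma adjusted p = 1.19e-04). Its means were also below WT in Het (76.9 RPM) and in Null+EZH2 (89.6). BAMBI, a decoy receptor gene that BMP itself induces, was at 41.0 ± 18.8 in Null and 8.88 ± 4.11 in WT. BMPER was at 6.43 ± 4.12 and 0.762 ± 0.123, and NBL1 at 16.1 and 4.12. Of 11 other response genes 5 were higher and 0 lower, among them VENTX (13.3 ± 1.27 against 4.05 ± 0.823), HAND1 (23.3 ± 18.0 against 0.467 ± 0.304), HEY1 (3.67 against 0.715) and GATA2 (2.29 against 0.207). The trophectoderm and mesoderm marker sums given above were also higher in Null than in WT, and such cells express HAND1 and GATA2. Within those lists KRT7 (3.20 against 4.44 RPM), VTCN1 (0.0319 against 0.222) and TBX6 (1.71 against 2.15) had lower means in Null. The part of such cells in the HAND1 and GATA2 values was not tested. Between Null and Null+EZH2, 6 of the 49 were higher and 0 lower, against 2.63% and 0.524% of genes, and with the block 18 and 1, against 6.19% and 3.21%. The 6 were BMPER and the response genes GATA3 (2.35 ± 1.21 against 0.273 ± 0.110), HAND1, GATA2, SNAI2 and ATOH8. Het against WT called 2, FST and RGMB, both lower, against 0.966% of genes, and Null+EZH2 against WT called 3 higher and 5 lower, with 4 and 15 under the block, against 6.26% and 16.1%.

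The genes whose log2 RNA level over the 12 libraries was most like that of BMP4, among 15471 genes at a mean of at least 1 RPM, were MAGED2 (Pearson r 0.981), F3 (0.980), CCDC22 (0.971), PHKA1 (0.971) and CH507-528H12.1 (0.969). MAGED2, CCDC22 and PHKA1 lie on the X chromosome. For ID1 they were IFITM1 (0.964), LINC01356 (0.960), VENTX (0.959), KCNK1 (0.955) and GLUD1 (0.954), of which VENTX is also on the list of response genes above. These values describe 12 libraries in 4 genotypes and carry no test.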

How the data were processed

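RNA was measured in 12 libraries, 3 for each of 4 EZH2 genotypes. Per the labels and the study's methods, the authors trimmed reads with Trim Galore 0.4.0, aligned them to GRCh38 with TopHat2 2.0.12, counted them on Ensembl gene models without regard to strand and deposited log2 RPM (reads per 1000000 of the library), with a gene of 0 reads set to 0.9 of 1 read (returned to 0 here). The deposited ChIP table holds log2 RPM of reads aligned with Bowtie2 2.2.5, in windows of 2.5 kb to either side of each start, each histone and input column a mean over 2 libraries per the labels (the study's text describes 3), made from native chromatin cut by MNase, and EZH2 1 library of crosslinked chromatin.

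RNA was tested with limma 3.58.1 (R 4.3.3; lmFit and eBayes with trend) on log2(RPM + 0.1) over all 12 libraries, for the 20608 genes whose mean reached 0.1 RPM. P-values were Benjamini-Hochberg adjusted over all of them, and a gene was called at an adjusted p under 0.05. Errors are standard errors of this fit (SE) or standard deviations over 3 libraries (SD). Whole reads were recovered for 100% of values below 1000 reads, within 0.01 of a whole number, and voom on them called 6265, 300, 138 and 1647 genes in Null against WT, Null against Null+EZH2, Het against WT and Null+EZH2 against WT, where the fit above called 6463, 650, 236 and 2123. The study describes the libraries of a genotype as biological replicates, and p-values measure the spread between them. The sources used here do not say that they came from separately derived lines. Replicate numbers of the labels were taken as pairs because deviations from the group means correlated above 0.1 for every same-number pair (lowest 0.107, means 0.283 to 0.338). Other pairs averaged -0.167 to -0.134, but centring each group on its mean forces that average below 0, so it is no separate evidence. Some other pairs exceeded same-number ones. Null+EZH2 replicate 2 correlated at 0.210 with WT replicate 1 and 0.109 with WT replicate 2, so the pairing and the block are uncertain. ChIP columns were compared as differences of log2(RPM + 0.1) with no test, at a change of at least 1, and counting errors are 95% intervals of the recovered read numbers.

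The genes named were the 10 members, EZH2, up to 4 genes by smallest adjusted p per pathway list in Null against WT and in Null against Null+EZH2, and the 5 genes most like BMP4 and ID1. ATOH8 was named after its value was seen. The members, the lists and the tests were chosen with earlier results of these data known. Alternatives were other pseudocounts, filters, scaling, windows, sets of libraries, the replicate block and voom. Figures were drawn with matplotlib 3.10.9.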

Additional observations from a re-analysis of the deposited data

How the results depend on the processing

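Depth limits MSX1, MSX2 and ID4, whose lowest libraries held 11, 9 and 53 reads, and the ChIP values have no replicate error. Of the alternative RNA values of single members, 515 kept their direction and side of the threshold, 48 lost a call, 23 gained one and 14 changed sign, all for members not called. The replicate block, which uses the pairing of replicate numbers, raised the members called from 3 to 6 in Null against Null+EZH2 and from 1 to 3 in Het against WT, and beyond the calls given in the report it changed no other member's call.

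In Null against WT, 4 members were called, and every alternative called 3 to 6. In Null against Null+EZH2, where 3 were called, a filter at a mean of 1 RPM called 1, a fit of only the 2 genotypes 1, voom 0, and the fits without 1 library 0 to 5, with 0 without Null replicate 2 or 3 or Null+EZH2 replicate 1 or 2. In Het against WT, where 1 was called, a pseudocount of 1 RPM, no filter on low values, rescaled RPM, a fit of only the 2 genotypes and voom each called 0, and the fits without 1 library 0 to 2. In Null+EZH2 against WT, where 4 were called, the fits without 1 library called 1 to 5. Leaving out replicate 3 of all genotypes, chosen after seeing the data, gave 1, 3 and 7 in these last 3 comparisons, and 5, 3 and 7 with the block. The cause was not tested, beyond the smaller number of libraries in such fits.

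Changes of sign were seen at MSX1 in Null against WT (-0.44 to 0.58 without 1 library, -0.59 without replicate 3 of all genotypes), ID2 in Null against Null+EZH2 (-0.59 to 0.031), ID4 in Null+EZH2 against WT (-0.075 to 0.55), and in Het against WT at BMP2 (-0.19 to 0.77), BMP4 (-0.032 to 0.37, -0.040 without replicate 3 of all genotypes) and BMP7 (-0.39 to 0.11, 0.039 with rescaled RPM).

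Of ChIP counts, H3K27me3 lower in Null and in Null+EZH2 kept within 1.5 times, and the single member lower in Het was 0 with a pseudocount of 1 RPM and 0 after centring. H3K27ac higher in Null against WT (2 members) was 1 with the first window, 0 with a pseudocount of 1 RPM and 1 after centring, in Het against WT (2 members) 1 with the window of most H3K27me3, 1 with the first window and 0 with a pseudocount of 1 RPM, in Null+EZH2 against WT (1 member) 0 with the first window and 0 with that pseudocount, and in Null against Null+EZH2 (0 members) 1 with the window of most H3K27me3. H3K4me3 lower in Null against WT (2 members) was 1 with the window of most H3K27me3, 1 with that pseudocount and 0 after centring. In Het against WT (0 members) H3K4me3 lower was 1 with the first window, and H3K4me3 higher was 1 with the window of most H3K27me3, 1 with the first window and 1 after centring. In Null+EZH2 against WT (0 members) H3K4me3 lower was 1 with the first window.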
